A study of Mus musculus with 2 samples.

Results

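Natural killer (NK) cells were picked out of single-cell RNA sequencing of the mouse uterus by the transcripts each barcode carried. The members were chosen by detection of a UMI (unique molecular identifier, 1 counted transcript) in these same libraries, so the genes used are described and not tested. A barcode needed 1000 UMIs or more, 500 genes or more and no more than 20% of its UMIs from mitochondrial genes. It was called an NK cell when at least 3 of the 8 genes Ncr1, Klrb1c, Nkg7, Gzma, Klrd1, Klre1, Txk and Eomes had a UMI and none of the 6 genes Cd3e, Cd3d, Cd3g, Epcam, Pecam1 and C1qa did. The rule found 172 NK cells among 13935 kept cells, 25 of 6325 in the Mettl14 d/d library and 147 of 7610 in the Mettl14 f/f library.

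Both libraries came from whole uterus taken on gestational day 4 and counted as 3′ transcript tags. The d/d label is the usual notation for deleted alleles and the f/f label that for alleles flanked by recombination sites, and the labels used here name no Cre driver, no deleted exon, no strain, no maternal age and no number of animals. Each genotype was 1 library, so no difference has a replicate check, no p-value is given, and every 95% interval covers counting error only. The d/d matrix held 44745031 UMIs over 6661 barcodes and the f/f matrix 55080123 UMIs over 8164 barcodes.

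NK cells are innate lymphocytes that kill target cells with perforin and granzymes and that release cytokines and chemokines. In the mouse uterus they include tissue-resident cells, which carry the integrin Itga1, and conventional cells, which carry Itga2. They multiply as the stroma decidualizes and are known for roles in remodelling of the uterine arteries. Of the other innate lymphoid cells (ILCs), ILC2 are recognised by Gata3 with Il5 and Il13, and ILC3 by Il22 and Il17a. ILC1, a further type, had no gene list here and were not looked for. Mettl14 is the partner of Mettl3 in the complex that writes N6-methyladenosine (m6A) on RNA.

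The promoters of 3 genes of the rule are shown, since these genes chose the cells. Each runs from 250 bases before to 50 bases after the start site and was taken from RefSeq on GRCm38.p6. Ncr1 (the activating receptor NKp46) lies at chr7:4337465-4337764 on the plus strand, Nkg7 (a granule membrane protein) at chr7:43436888-43437187 on the plus strand, and Gzma (granzyme A) at chr13:113100932-113101231 on the minus strand. Capitals mark the core motif of RUNX factors, TGTGGT or its reverse complement ACCACA.
Ncr1: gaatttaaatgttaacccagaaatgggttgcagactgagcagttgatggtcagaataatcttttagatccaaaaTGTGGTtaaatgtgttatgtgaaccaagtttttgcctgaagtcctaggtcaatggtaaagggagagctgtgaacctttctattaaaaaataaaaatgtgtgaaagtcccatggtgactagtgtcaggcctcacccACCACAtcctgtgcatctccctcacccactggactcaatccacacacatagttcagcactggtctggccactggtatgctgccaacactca
Nkg7: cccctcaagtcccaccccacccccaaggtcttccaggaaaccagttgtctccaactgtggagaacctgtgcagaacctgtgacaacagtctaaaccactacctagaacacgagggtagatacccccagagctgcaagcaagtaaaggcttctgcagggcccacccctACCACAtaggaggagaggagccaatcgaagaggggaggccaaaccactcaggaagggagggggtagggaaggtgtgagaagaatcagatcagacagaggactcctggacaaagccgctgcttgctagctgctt
Gzma: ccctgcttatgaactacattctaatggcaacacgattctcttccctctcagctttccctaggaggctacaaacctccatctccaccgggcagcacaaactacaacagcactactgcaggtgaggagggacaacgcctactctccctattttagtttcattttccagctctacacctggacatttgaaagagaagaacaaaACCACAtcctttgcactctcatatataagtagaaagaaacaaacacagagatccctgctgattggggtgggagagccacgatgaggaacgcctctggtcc

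The core stood 176 and 41 bases before the start site of Ncr1, 83 bases before that of Nkg7 and 50 bases before that of Gzma. Of the 8 rule genes 7 matched an entry, Klrd1 being the exception, and 5 of those 7 held a core on either strand in the window, as did 16.8% of all 32851 promoters in the table (5506). A match describes letters and not a bound site. The transcription factor Runx3 itself was present in 21 of 25 d/d and 122 of 147 f/f NK cells.

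The name NK cell was checked on genes that the rule did not use. Ptprc (the pan-leukocyte protein CD45) had a UMI in 25 of 25 d/d and 143 of 147 f/f NK cells, and Tyrobp (DAP12, a signalling adaptor of NK and myeloid cells) in 24 of 25 d/d and 124 of 147 f/f NK cells. In stromal cells Tyrobp had a UMI in 42 of 1782 d/d cells (2.36%) and 104 of 4607 f/f cells (2.26%), at a median depth of 7176.5 UMIs in d/d and 6575 UMIs in f/f. All 14 genes of a list of further NK markers had UMIs in both libraries. The 20 genes most enriched over all other kept cells in both libraries were led by the Ly49 receptors Klra1, Klra9 and Klra4 and the receptor chain Klrc2, with Ifng, Fasl, Prf1, Il2rb, Tbx21 and Xcl1 further down. Their levels in counts per 1000000 UMIs of the cells summed (CPM) in f/f were from 39.3 to 75.1 times those of the other f/f cells. The 20 were ranked on such ratios in these same cells, so the size of the ratios is no check of the name.

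Of the cytokines that define ILC2 and ILC3, Il5, Il13 and Il22 were at 0 in both libraries. Il17a had a UMI in 1 of 25 d/d and 0 of 147 f/f NK cells, and other genes of the lists also had UMIs. Of 13 ILC3 genes, 8 were at 0 in d/d and 7 in f/f NK cells, Il22 and Il23r among them in both, and the list summed to 317 CPM in d/d and 128 CPM in f/f, with no UMI in 11 of 25 d/d and 85 of 147 f/f cells. Its member Ltb was at 205 CPM in d/d and 43.9 CPM in f/f. Of 15 ILC2 genes, 10 were at 0 in d/d and 9 in f/f, Il5, Il13 and Il4 among them in both, and the list summed to 367 CPM in d/d and 67.4 CPM in f/f, with no UMI in 13 of 25 d/d and 106 of 147 f/f cells. Gata3 had a UMI in 4 of 25 d/d and 29 of 147 f/f cells. The cells are called NK cells below for the rule genes and the 14 further NK markers. Those 14 summed to 11105 CPM in d/d and 6565 CPM in f/f NK cells. T cells also had UMIs of all 14, which summed there to 4473 CPM in d/d and 5155 CPM in f/f. In macrophages they summed to 5080 CPM in d/d and 2617 CPM in f/f. By these sums f/f NK cells stood only a little above f/f T cells, of which there were 29. Cell by cell, the median was 7917 CPM in f/f NK cells and 4417 CPM in f/f T cells. At least 5 of the 14 were detected in 139 of 147 f/f NK cells and 12 of 29 f/f T cells. In d/d this held for 24 of 25 NK cells and 35 of 204 T cells. Whether single cells among the NK cells are other innate lymphoid cells was not tested. A gene of the ILC2 list is singled out after its values were seen: Areg (amphiregulin, an epidermal growth factor family ligand) had 28 UMIs in 5 of 25 d/d NK cells, 15 of them in 1 cell, against 0 in 147 f/f NK cells. With 0 replaced by 3 UMIs this was at least 61.6-fold higher in d/d, and Areg was at 1621 CPM in d/d T cells against 0 CPM in f/f T cells.

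The threshold of 3 genes had few d/d cells beside it, and more f/f cells. In d/d, 1 cell had exactly 3 of the rule genes and 5 cells had 2, while in f/f 22 cells had exactly 3 and 18 had 2. The 14 further NK markers summed to 7029 CPM in the d/d cell with 3 and 4538 CPM in the d/d cells with 2, and to 2949 and 2076 CPM in the matching f/f cells. Before the 6 excluding genes were applied, 68 d/d and 269 f/f cells had at least 3 rule genes. The exclusion removed 43 d/d cells, most often through Cd3d (22 cells) and Cd3g (21), and 122 f/f cells, most often through the endothelial gene Pecam1 (87 cells, 68 of them through Pecam1 alone).

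NK cells carried transcripts of other cell types, and did so unequally in the libraries. The 13 stromal genes summed to 635 CPM in d/d NK cells and 5383 CPM in f/f NK cells, and 4 of them, Pdgfra, Dpt, Mfap4 and Hoxa11, were at 0 in d/d and none was in f/f. In 0 of 25 d/d and 44 of 147 f/f NK cells at least 5 of 8 stromal genes were detected; the median depth of those 44 was 11029 UMIs, 42 of them had Ptprc, and 17 were among the barcodes with the highest doublet scores. The 10 smooth muscle and pericyte genes summed to 3238 CPM in d/d and 809 CPM in f/f NK cells, and 3 d/d cells held 161 of the 164 d/d Tagln UMIs. The 17 T cell genes summed to 677 CPM in d/d and 448 CPM in f/f NK cells, with Cd4, Cd8a, Cd8b1, Cd5, Cd6 and Foxp3 at 0 in both. Of the same list Cd28 had a UMI in 15 of 25 d/d and 70 of 147 f/f NK cells, and Trdc in 5 of 25 d/d and 26 of 147 f/f NK cells. Of 12 dendritic cell genes 6 had UMIs in d/d and 8 in f/f, where the highest cell reached 17426 CPM. The part of these transcripts in the results below was not tested, so results are also given for stroma-poor NK cells, those with at most 2 of 8 stromal and at most 2 of 10 muscle genes. They numbered 21 in d/d and 78 in f/f, and 0 of either were among the highest doublet scores. In these cells the stromal genes summed to 169 CPM in d/d and 489 CPM in f/f. The libraries shared 8 barcodes, of which 0 were d/d and 1 was an f/f NK cell.

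Mettl14 (chr3:123368297-123386108, GRCm38, minus strand) gave 1 UMI in 1 of 25 d/d NK cells and 17 UMIs in 16 of 147 f/f NK cells. The level was 7.06 CPM in d/d and 18.2 CPM in f/f, a ratio of 0.388 with an interval of 0.00928 to 2.48. At this depth a difference in Mettl14 was not detectable in NK cells. In stromal cells, which were far more numerous, Mettl14 had a UMI in 34 of 1782 d/d cells (1.91%) and 453 of 4607 f/f cells (9.83%). Its tags were thus scarcer in d/d stroma, and the cause was not tested. The labels do not place the deleted part, and 3′ tags outside it would not check the deletion.

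NK cells made up a smaller share of the d/d library. They were 0.395% of kept d/d cells (Clopper-Pearson interval 0.256 to 0.583%) and 1.93% of kept f/f cells (1.63 to 2.27%), a ratio of 0.205 (0.128 to 0.314). Among cells with a Ptprc UMI they were 3.24% in d/d and 16.8% in f/f, so the lower share also stood among leukocytes. Stroma-poor NK cells were 0.332% of d/d and 1.02% of f/f cells, a ratio of 0.324 (0.190 to 0.530), and the ratio was 0.304 (0.230 to 0.398) before the excluding genes were applied. When each cell was thinned to 1000 UMIs before the rule, 24 d/d and 101 f/f cells passed and the ratio was 0.286 (0.175 to 0.450).

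Other cell types had other ratios in the same libraries. T cells, called by at least 3 of 6 T cell genes, were 3.23% of d/d and 0.381% of f/f cells, macrophages were 4.84% of d/d and 3.52% of f/f cells, and stromal cells, called by at least 5 of 8 stromal genes, 28.2% of d/d and 60.5% of f/f cells. Each of these gates also left out cells with a UMI of genes of other types, among them Ncr1, Epcam and Pecam1 in all of them and Ptprc in the stromal gate. Of the cells in the NK, T cell and macrophage gates together, NK cells were 4.67% in d/d and 33.3% in f/f. A share is not a number per uterus, and fewer NK cells cannot be told apart from more of the other cells.

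The difference in share stood mostly in cells that carried several proliferation genes. A cell with at least 3 of 28 proliferation genes detected is called cycling here, which is a range of a count and not a cell type. Cycling NK cells were 5 in d/d (0.0791% of kept cells) and 113 in f/f (1.48%), a ratio of 0.0532 with an interval of 0.0170 to 0.128. The remaining NK cells were 20 in d/d (0.316%) and 34 in f/f (0.447%), a ratio of 0.708 with an interval of 0.386 to 1.27 that includes 1. In stroma-poor NK cells the same split gave 3 d/d and 52 f/f cycling cells (ratio 0.0694) and 18 d/d and 26 f/f other cells (ratio 0.833, interval 0.430 to 1.58). Before the excluding genes were applied the ratios were 0.0980 for cycling cells and 1.25 (0.826 to 1.90) for the others.

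**Figure D1:**
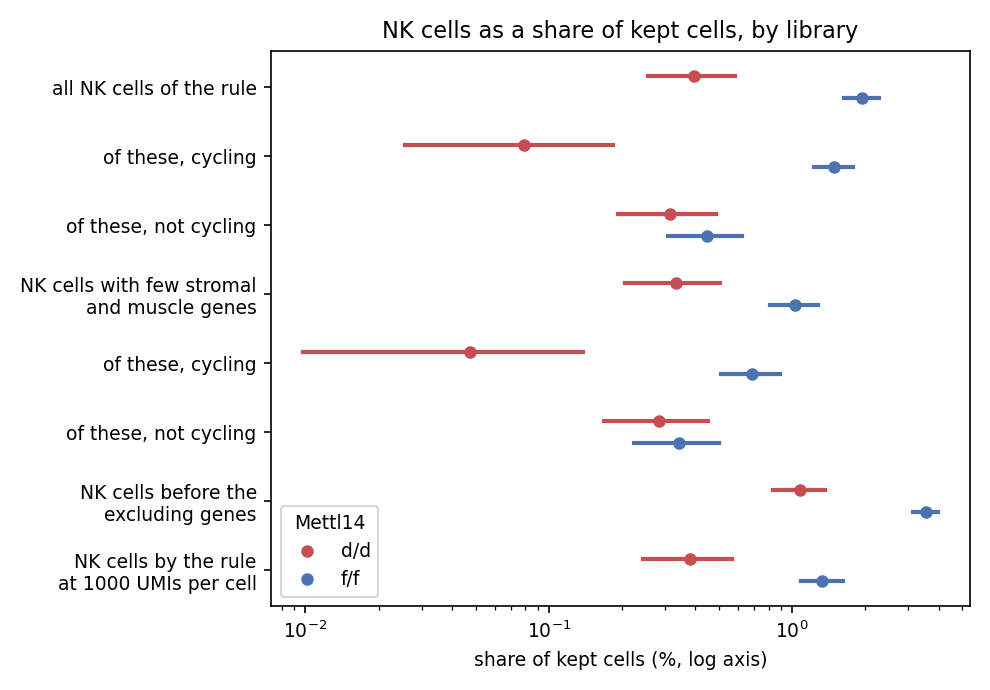
Share of kept cells (%, log axis) held by NK cells under each definition, with d/d (red) above f/f (blue); points are shares and bars are 95% Clopper-Pearson intervals, which cover counting error only. The cycling cells differ most (0.0791% in d/d and 1.48% in f/f), while the intervals of the NK cells that are not cycling overlap (0.316% in d/d and 0.447% in f/f).

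The split depends on depth, since the cut counts detected genes. Stroma-poor NK cells that were not cycling had a median of 3497 UMIs in d/d and 1823.5 in f/f. With each cell thinned to 1000 UMIs before both the rule and the count of proliferation genes, 3 d/d and 49 f/f NK cells were cycling (ratio 0.0737) and 21 d/d and 52 f/f were not (ratio 0.486, 0.278 to 0.821). The thinned cells that were not cycling take in cells that were cycling at full depth: of the same 147 f/f NK cells 113 were cycling at full depth and 65 when thinned. The 0.486 is thus not a ratio of the same cells as the 0.708. Near the cut, 5 d/d and 15 f/f NK cells had exactly 2 proliferation genes, and 1 d/d and 9 f/f cells had exactly 3.

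Proliferation genes were scarce in d/d NK cells. Cycling cells were 20% of d/d NK cells (6.83 to 40.7%) and 76.9% of f/f NK cells (69.2 to 83.4%), and 14.3% of d/d and 66.7% of f/f stroma-poor cells. In already called NK cells thinned to 1000 UMIs, 4.00% of d/d and 44.2% of f/f cells were cycling, and 0 of 21 d/d (up to 16.1%) and 35 of 78 f/f (44.9%) stroma-poor cells. The same thinned share was 2.45% in d/d and 27.6% in f/f T cells, 0% in d/d and 4.85% in f/f macrophages, and 2.53% in d/d and 5.95% in f/f stromal cells. The direction was thus shared by the T cells, macrophages and stroma of these libraries, and free RNA from other cycling cells was not subtracted.

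**Figure D2:**
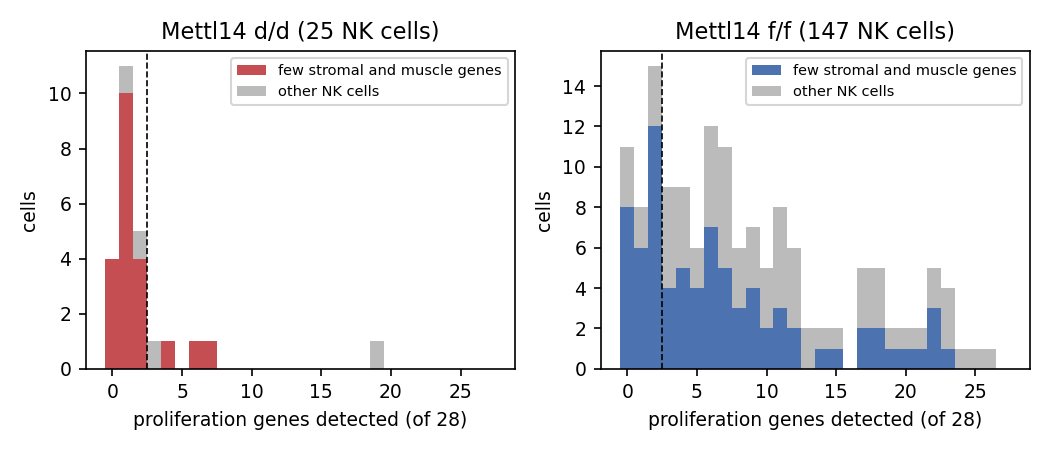
Number of NK cells by how many of 28 proliferation genes each had detected, in d/d (left) and f/f (right); colour marks stroma-poor cells, grey the others, and the dashed line the cut of 3 genes. The median is 1 gene in d/d and 7 in f/f.

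Over genes, 3194 had at least 50 UMIs in NK cells of both libraries together and are called measured, and their median log2 ratio of d/d over f/f was -0.18. Past 2-fold, 186 were higher in d/d (5.82%) and 530 lower (16.6%). Of 28 proliferation genes 20 were measured, of which 0 were higher and 17 lower past 2-fold, with a median of -2.00. In stroma-poor cells 1026 genes were measured, 47 of them higher (4.58%) and 143 lower (13.9%), and all 9 measured proliferation genes were lower, with a median of -2.68. In stroma-poor cells that were not cycling, 306 genes were measured, 21 of them higher (6.86%) and 13 lower (4.25%), and no proliferation gene reached 50 UMIs. For scale, 18.6% of measured genes were higher in d/d and 6.21% lower past 2-fold in T cells, 9.48% and 13% in macrophages, and 8.43% and 6.86% in stroma. The median of the proliferation list was also below 0 in T cells (-2.11), macrophages (-2.56) and stroma (-1.21).

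Single genes of the cell cycle showed how few d/d cells contributed. Mki67, the Ki-67 antigen of dividing cells, had 4 UMIs, all in 1 d/d cell, and 234 UMIs over 72 f/f cells. Top2a, the topoisomerase that untangles replicated DNA, had 3 UMIs in d/d and 325 in f/f (log2 ratio -4.04, interval -6.32 to -2.48). The histone Hist1h2ap had 0 UMIs in d/d and 581 in f/f, at least 29.4-fold lower with 0 replaced by 3 UMIs, and Hist1h1b 0 in d/d and 164 in f/f, at least 8.29-fold lower. Ube2c, a ubiquitin-conjugating enzyme of mitosis, had 2 UMIs in d/d and 199 in f/f (log2 ratio -3.92). Stmn1, which destabilises microtubules, was at 190 CPM in d/d and 580 CPM in f/f, with 22 of its 27 d/d UMIs in 1 cell. In stroma-poor cells it was at 42.3 CPM in d/d and 728 CPM in f/f.

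The genes that chose the cells are given as levels only. Nkg7 was at 1383 CPM in d/d and 726 CPM in f/f, and Klrd1 (CD94) at 797 CPM in d/d and 381 CPM in f/f. Klre1 was at 529 CPM in d/d and 470 CPM in f/f, and Txk (a Tec family kinase) at 325 CPM in d/d and 219 CPM in f/f. Klrb1c (NK1.1) was at 233 CPM in d/d and 167 CPM in f/f, and Ncr1 at 183 CPM in d/d and 113 CPM in f/f. Gzma was at 1418 CPM in d/d and 339 CPM in f/f, and Eomes, a T-box factor of NK cell maturation, at 183 CPM in d/d and 249 CPM in f/f. Gzma was detected in 13 of 25 d/d and 51 of 147 f/f NK cells. In stroma-poor cells that were not cycling, Gzma was at 1536 CPM in d/d and 1503 CPM in f/f, and Nkg7 at 1775 CPM in d/d and 1773 CPM in f/f.

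Of the NK receptors, Klrc1, Klra1 and Klra3 were higher in d/d past 2-fold. Of 13 measured receptors 3 were higher in d/d past 2-fold and 0 lower (median 0.69), beside 5.82% of all measured genes higher and 16.6% lower, and of 7 measured in stroma-poor cells 0 were higher and 1, Cd7, was lower (median -0.38). Klrc1, Klra1 and Klra3 had under 50 UMIs there and are not among the 7. The inhibitory receptor chain Klrc1 (NKG2A) was at 176 CPM in d/d and 32.1 CPM in f/f, a log2 ratio of 2.46 that was 1.69 in stroma-poor cells. Klra1, an Ly49 receptor, was at 155 CPM in d/d and 50.3 CPM in f/f from 4 d/d and 17 f/f cells (log2 ratio 1.63, and 1.25 in stroma-poor cells). Klra3 had a log2 ratio of 1.28, and -0.04 in stroma-poor cells. Klrk1 (the activating receptor NKG2D) was at 254 CPM in d/d and 189 CPM in f/f, with an interval of the log2 ratio from -0.14 to 0.95 that includes 0. The Ly49 genes are close in sequence to one another, as are the Klrc genes, so counts of their single members are uncertain.

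Adaptors pass receptor signals on into the cell. Of 14 measured genes 2 were higher in d/d and 1 lower past 2-fold (median 0.43), beside 5.82% and 16.6% of all measured genes. Of 10 in stroma-poor cells 1 was higher and 1 lower (median 0.12), beside 4.58% and 13.9% of all genes measured there. Hcst (DAP10, the adaptor of NKG2D) was at 515 CPM in d/d and 155 CPM in f/f, a log2 ratio of 1.73 (1.31 to 2.15), and 1.21 in stroma-poor cells. Tyrobp (DAP12) was at 1087 CPM in d/d and 635 CPM in f/f, with a log2 ratio of 0.77 that was 0.35 in stroma-poor cells. In stroma-poor cells that were not cycling, 4 adaptor genes were measured, 0 of them past 2-fold (median 0.07). Their summed log2 ratio there was 0.03, with an interval of -0.21 to 0.27.

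**Figure D3:**
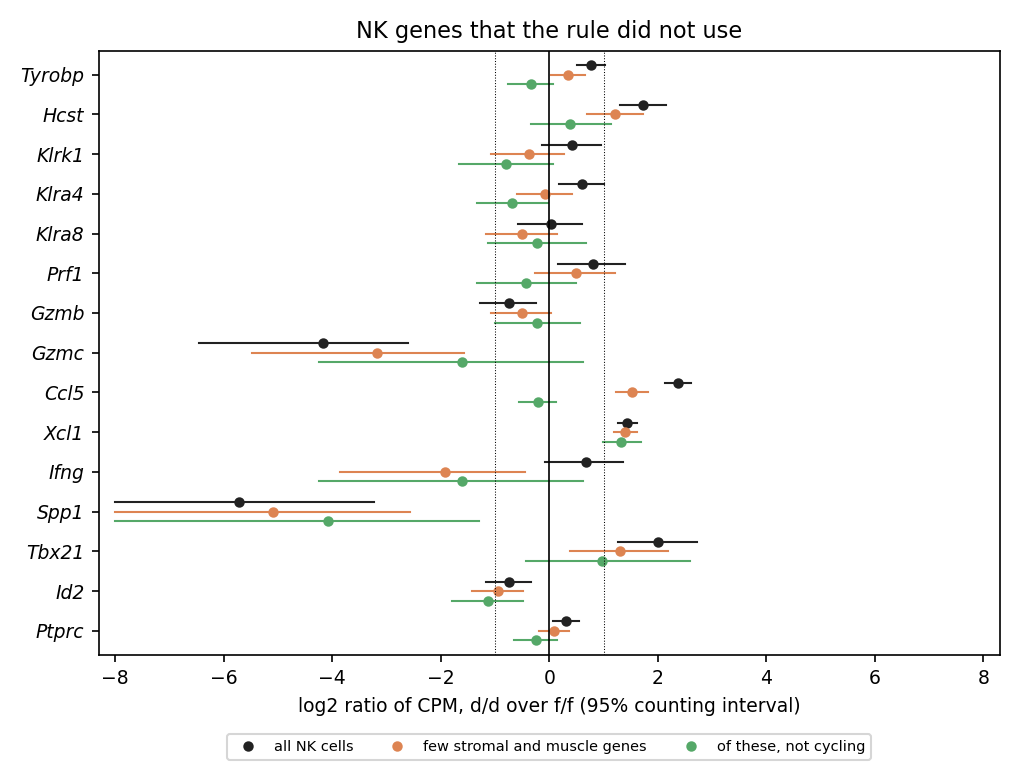
Log2 ratio of CPM, d/d over f/f, for 15 NK adaptor, receptor, effector and other genes that the rule did not use; black is all NK cells, orange stroma-poor cells and green stroma-poor cells that were not cycling, with 95% counting intervals, drawn to the limit of the axis where they run on, and dotted lines at 2-fold. Ccl5 stands at 2.37 in all NK cells and -0.22 in the cells that were not cycling, and Xcl1 at 1.44 and 1.33.

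Cytotoxic granule genes had ratios in both directions. Of 11 measured genes 2 were higher in d/d and 2 lower past 2-fold (median 0.48), beside 5.82% and 16.6% of all measured genes. The lower share was thus near that of all genes. Of 7 in stroma-poor cells 1 was higher and 2 lower (median -0.06), beside 4.58% and 13.9% of all genes measured there. Gzmc (granzyme C) had 3 UMIs in 3 d/d cells and 354 UMIs in 30 f/f cells, 113 of them in 1 cell. Its log2 ratio was -4.16 (-6.45 to -2.60), and it had 3 UMIs in d/d and 79 in f/f stroma-poor cells. Of those 79 f/f UMIs 73 lay in cycling cells and 6 in 1 of the 26 other cells. The ratio of Gzmc could thus not be followed outside cycling cells. Gzmb (granzyme B) was at 254 CPM in d/d and 423 CPM in f/f (log2 ratio -0.73), and 25 of its 36 d/d UMIs lay in 1 cell; without the highest cell of each library the log2 ratio was -2.32. Prf1 (perforin) was at 205 CPM in d/d and 118 CPM in f/f, a log2 ratio of 0.80 that was 0.49 in stroma-poor cells with an interval of -0.26 to 1.20. Of the serpins that inhibit granzymes or related proteases, Serpinb6b was at 226 CPM in d/d and 52.4 CPM in f/f (log2 ratio 2.11, 2.00 in stroma-poor cells). Serpinb9 was at 254 CPM in d/d and 80.2 CPM in f/f (1.66, 1.14 in stroma-poor cells, and -0.45 in those not cycling). Lamp1, a lysosomal membrane protein that reaches the surface on degranulation, was at 77.6 CPM in d/d and 186 CPM in f/f (log2 ratio -1.26).

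Secreted factors held the ratios that were largest among effector genes. Of 12 measured 6 were higher in d/d and 4 lower past 2-fold (median 1.05), beside 5.82% and 16.6% of all measured genes. Of 7 in stroma-poor cells 4 were higher and 1 lower (median 1.35), beside 4.58% and 13.9% of all genes measured there. Xcl1, a chemokine that attracts cross-presenting dendritic cells, was at 2787 CPM in d/d and 1028 CPM in f/f, from 23 of 25 d/d and 108 of 147 f/f cells, a log2 ratio of 1.44 (1.27 to 1.61). It was 1.40 in stroma-poor cells and 1.33 (0.98 to 1.69) in those not cycling, though 116 of 395 d/d UMIs lay in 1 cell and the log2 ratio was 1.0 without the highest cell of each library. In T cells Xcl1 was at 54.4 CPM in d/d and 721 CPM in f/f, a log2 ratio of the opposite sign (-3.73). The f/f value rested on 72 UMIs in a gate of 29 T cells.

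Vegfa, the growth factor of blood vessels, was at 296 CPM in d/d and 41.7 CPM in f/f NK cells, a log2 ratio of 2.83 (2.16 to 3.50). In stroma-poor cells it had 34 UMIs in 10 of 21 d/d cells and 5 UMIs in 4 of 78 f/f cells, a log2 ratio of 4.31 (2.95 to 6.02). Its log2 ratio was -0.09 in T cells, 2.29 in macrophages and 0.62 in stroma. Tgfb1 was at 254 CPM in d/d and 94.1 CPM in f/f, with a log2 ratio of 1.43, and 1.35 in stroma-poor cells. Ltb, a membrane-bound ligand of the tumour necrosis factor family, was at 205 CPM in d/d and 43.9 CPM in f/f (2.22, and 1.60 in stroma-poor cells).

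The secreted protein Spp1 (osteopontin) had a ratio of the other sign. It had 1 UMI in d/d and 348 UMIs in 73 of 147 f/f NK cells, a log2 ratio of -5.72 (-11.03 to -3.23). In stroma-poor cells it had 1 UMI in d/d and 99 UMIs in f/f, where 32 of 78 f/f cells had it. Of those 99 f/f UMIs 88 lay in cycling cells and 11 in 6 of the 26 other cells, so few were left outside cycling cells. In macrophages Spp1 was higher in d/d, at 507 CPM against 69.8 CPM in f/f.

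Other chemokines and Ifng had ratios that differed between the sets of cells. Ccl5 had a UMI in 17 of 25 d/d and 50 of 147 f/f NK cells. It was at 1806 CPM in d/d and 349 CPM in f/f (log2 ratio 2.37), at 2031 CPM in d/d and 710 CPM in f/f stroma-poor cells, and at 2191 CPM in d/d and 2544 CPM in f/f cells of these that were not cycling. Ccl3 had a log2 ratio of 1.69, 0.24 in stroma-poor cells and -1.40 in those not cycling, and 49 of its 85 d/d UMIs lay in 1 cell. Ccl4 was at 861 CPM in d/d and 845 CPM in f/f, from 12 of 25 d/d and 96 of 147 f/f cells. Ifng (interferon gamma) was at 155 CPM in d/d and 97.3 CPM in f/f, with 13 of 22 d/d UMIs in 1 cell, and at 42.3 CPM in d/d and 159 CPM in f/f stroma-poor cells, where the direction was the opposite.

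Among transcription factors, 2 of 12 measured were higher in d/d and 1 lower past 2-fold (median 0.37), beside 5.82% and 16.6% of all measured genes. Of 6 in stroma-poor cells 1 was higher and 0 lower (median 0.15), beside 4.58% and 13.9% of all genes measured there. Tbx21 (T-bet), a T-box factor of NK cell effector function, was at 198 CPM in d/d and 49.2 CPM in f/f, from 16 of 25 d/d and 36 of 147 f/f cells, a log2 ratio of 2.01 (1.27 to 2.71) and 1.29 in stroma-poor cells. Eomes, a gene of the rule and so given as a level only, was at 190 CPM in d/d and 402 CPM in f/f stroma-poor cells. Id2, needed by all innate lymphoid lineages, was at 388 CPM in d/d and 645 CPM in f/f (log2 ratio -0.73, -1.16 to -0.33). Bhlhe40 had a log2 ratio of 1.85, and 2.01 in stroma-poor cells.

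The 12 genes higher in d/d by the interval bound nearest to 1 were Gadd45b, Cebpb, Mxd1, Crem, Cxcr4, Pim3, Nr4a1, Junb, Tagln, Fosl2, Vegfa and Cdkn1a. In stroma-poor cells 11 of the 12 had the same direction and 10 were still past 2-fold. Cxcr4, the receptor of Cxcl12, was at 325 CPM in d/d and 35.3 CPM in f/f, with a log2 ratio of 3.20 that was 2.11 in stroma-poor cells. Crem, a cAMP-responsive factor, was at 423 CPM in d/d and 44.9 CPM in f/f (3.24, and 2.87 in stroma-poor cells), and Fosl2, an AP-1 subunit, at 797 CPM in d/d and 134 CPM in f/f (2.58 and 2.40). Pim3 (a survival kinase) had log2 ratios of 3.24 and 2.87, and Mxd1 (a Myc antagonist) of 3.52 and 2.83.

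For Tagln and Gadd45b the ratio stood in few cells. Tagln, a smooth muscle gene, had a log2 ratio of 2.52 in all NK cells and -0.04 in stroma-poor cells. Gadd45b, a stress-induced gene, was at 459 CPM in d/d and 15.0 CPM in f/f (4.94), and the 3 d/d cells with at least 3 muscle genes held 36 of its 65 d/d UMIs; in stroma-poor cells it had 4 UMIs in d/d and 6 in f/f. Those 3 cells also held 73 of 106 d/d UMIs of Cebpb, whose log2 ratio was 3.38 in all NK cells and 2.13 in stroma-poor cells.

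**Figure D4:**
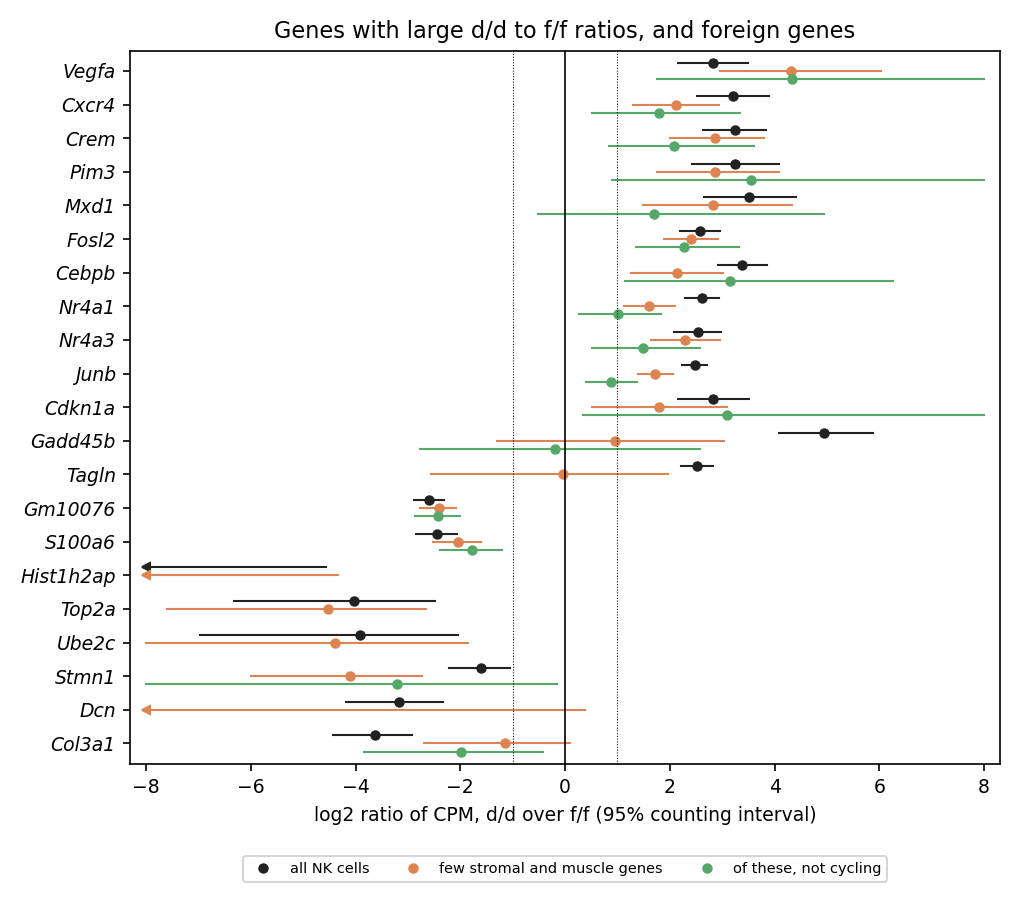
Log2 ratio of CPM, d/d over f/f, for genes with high or low ratios in NK cells and for the stromal genes Dcn and Col3a1; colours and intervals are as in the plot of NK genes outside the rule, an arrowhead marks a gene with 0 UMIs in d/d, and no point is drawn where neither library had over 3 UMIs. Vegfa, Crem, Pim3 and Fosl2 stay above 2 in stroma-poor cells, while Gadd45b and Tagln stand at 0.96 and -0.04.

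Several of these genes were also higher in other d/d cells. The NF-kB and activation list had 7 of 9 measured genes higher and 0 lower past 2-fold in NK cells (median 2.18). Over all measured genes the shares were 5.82% higher and 16.6% lower. In stroma-poor cells 4 of 5 were higher (median 1.57), and in those not cycling 1 of 4 (median 0.66). The list medians were 1.49 in T cells, 2.31 in macrophages and 1.45 in stroma. Its member Tnfaip3 (A20, an inhibitor of NF-kB) was at 642 CPM in d/d and 141 CPM in f/f. Immediate early and heat shock genes had 10 of 19 higher and 0 lower (median 1.07), but 2 of 16 higher and 2 lower in stroma-poor cells (median 0.35). Of all genes measured in stroma-poor cells 4.58% were higher and 13.9% lower. The immediate early and heat shock medians were 0.95 in T cells, 1.24 in macrophages and 2.13 in stroma. Junb had log2 ratios of 2.47 in NK cells, 2.11 in T cells, 2.04 in macrophages and 2.37 in stroma. Immediate early genes are known to respond to enzymatic digestion of tissue, and the handling of each sample cannot be told apart from its genotype.

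**Figure D5:**
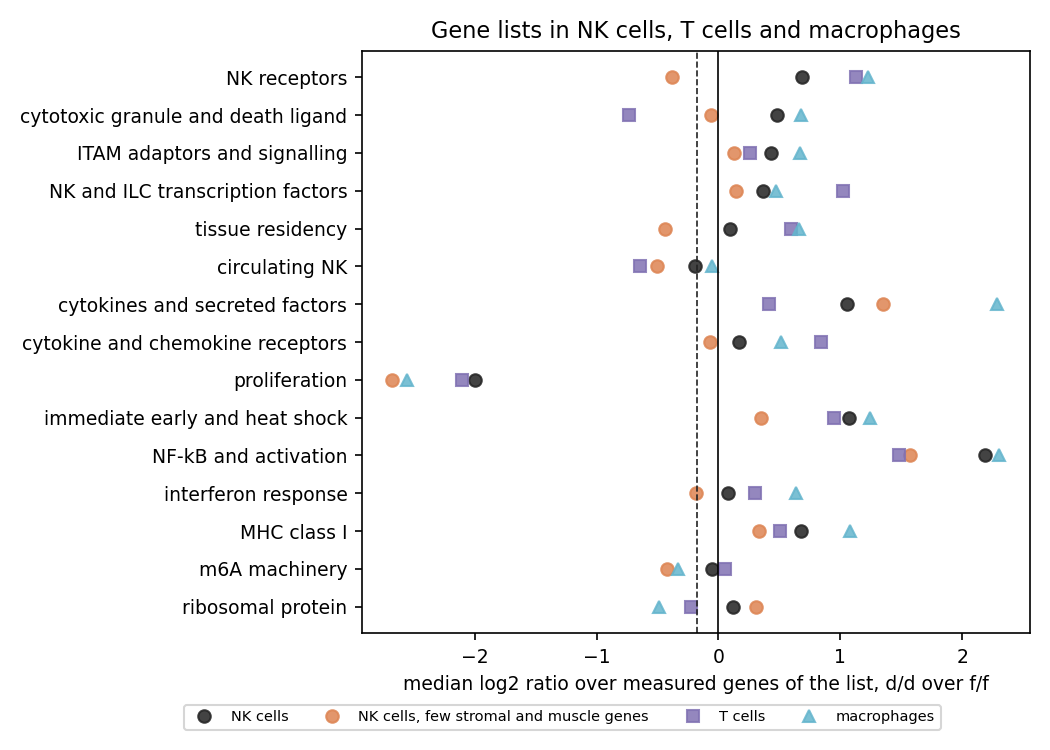
Median log2 ratio, d/d over f/f, over the measured genes of each list (at least 3) in NK cells (black), stroma-poor NK cells (orange), T cells (purple squares) and macrophages (blue triangles); the dashed line is the median of all genes measured in NK cells (-0.18). The proliferation list lies at or below -2.00 in all 4 and the NF-kB list at or above 1.49 in all 4.

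The 12 genes lower in d/d were Hist1h2ap, Spp1, Hist1h1b, Gzmc, Top2a, Gm10076, Angptl7, Fst, Rorb, S100a6, Ube2c and Hist1h2ae. Angptl7, Fst and Rorb had 0 UMIs in d/d and 117, 112 and 102 UMIs in f/f NK cells, but 0 in d/d stroma-poor cells and 2, 3 and 3 in f/f ones, so their ratio could not be followed there. The calcium-binding S100a6 was at 395 CPM in d/d and 2150 CPM in f/f (log2 ratio -2.44, -2.04 in stroma-poor cells), and its log2 ratio was -0.10 in T cells and -2.77 in macrophages. Gm10076, of the same order in every gate, had log2 ratios of -2.59 in NK cells, -2.67 in T cells, -2.64 in macrophages and -2.11 in stroma. Ifitm3, an interferon-induced membrane protein, was at 77.6 CPM in d/d and 407 CPM in f/f (-2.39, and -2.52 in stroma-poor cells). The interferon list had 0 of 7 measured genes higher and 2 lower (median 0.08), beside 5.82% and 16.6% of all measured genes.

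The counts of the remaining lists stand beside 5.82% of all measured genes higher in d/d and 16.6% lower. The m6A machinery had 0 of 12 measured genes higher and 1, Rbm15, lower (median -0.05, 0.007 under TMM scaling). MHC class I genes had 2 of 11 higher and 0 lower (median 0.67), and 0 of 7 either way in stroma-poor cells. All 31 ribosomal protein genes lay within 2-fold (median 0.12). Cytokine and chemokine receptors had 2 of 9 higher and 0 lower (median 0.17), and 1 of 6 higher and 1 lower in stroma-poor cells (median -0.07). The p53 response genes had 2 of 6 higher and 0 lower (median 0.58), and steroid receptors and their partners 0 of 6 higher and 3 lower (median -1.11), where Esr1 and Pgr had 0 UMIs in d/d and 4 and 2 in f/f stroma-poor cells.

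The integrins that separate resident from conventional NK cells were sparse. Itga1 without Itga2 was detected in 4 of 25 d/d NK cells (16%) and 54 of 147 f/f NK cells (36.7%), and Itga2 without Itga1 in 3 d/d (12%) and 9 f/f cells (6.12%). Both were detected in 1 d/d and 6 f/f cells, and neither in 17 d/d and 78 f/f cells. Stromal cells had Itga1 alone in 15.4% of d/d and 6.92% of f/f cells, so the d/d share was near that of stroma. When each cell was thinned to 1000 UMIs, Itga1 alone was found in 0 of 24 d/d and 9 of 101 f/f NK cells. The resident share could not be set apart between the libraries at this depth. The tissue residency list had 1 of 6 measured genes higher and 1 lower past 2-fold (median 0.09). The circulating NK list had 1 of 5 higher and 1 lower (median -0.19). Both stand beside 5.82% of all measured genes higher and 16.6% lower. In stroma-poor cells the medians were -0.44 over 4 residency genes and -0.50 over 3 circulating NK genes.

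Within the f/f library Gzmc and Spp1 led the genes higher in Itga1-only than in Itga2-only cells, ranked by the interval bound nearest to 1. Of 1292 measured genes 106 were higher in the 54 Itga1-only cells over the 9 Itga2-only cells past 2-fold (8.2%) and 36 lower (2.79%). Gzmc had 183 UMIs in Itga1-only and 0 in Itga2-only cells, but was detected in only 30 of all 147 f/f NK cells. Whether its absence from the 9 Itga2-only cells is more than sparse detection was not tested. Spp1 was at 619 CPM in Itga1-only and 57.0 CPM in Itga2-only cells (log2 ratio 3.44, 2.06 to 5.33), and S100a4 at 423 CPM in Itga1-only and 28.5 CPM in Itga2-only cells (3.89). Gzma, a gene of the rule, was at 219 CPM in Itga1-only and 813 CPM in Itga2-only cells. In the stroma-poor cells among them, 24 Itga1-only and 5 Itga2-only cells, the gaps of Spp1 and S100a4 were smaller. Spp1 was there at 730 CPM in Itga1-only and 274 CPM in Itga2-only cells, where it rested on 4 UMIs, and S100a4 at 622 CPM in Itga1-only and 137 CPM in Itga2-only cells, where it rested on 2 UMIs. Gzmc had 76 UMIs in Itga1-only and 0 in Itga2-only stroma-poor cells, and Gzma was at 227 CPM in Itga1-only and 3898 CPM in Itga2-only ones. Of the Itga1-only cells 47 of 54 were cycling, and of the Itga2-only cells 5 of 9. At least 5 stromal genes were detected in 16 Itga1-only and 3 Itga2-only cells. Both groups came from 1 library, and the part of cycling in these ratios was not tested.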

How the data were processed

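The authors deposited 1 matrix of unnormalized UMI counts for each library, of 31053 genes. Alignment to mm10 with Cell Ranger 3.0.1 is stated per the submitters' processing notes; cellranger 6.0.1 stands in the file headers, and which release made the counts was not settled.

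UMIs were summed over the cells of a gate in each library and divided by the gate's total to give CPM. Ratios carry conditional exact intervals, sums Poisson intervals and shares Clopper-Pearson intervals, all at 95%, and the ratio intervals were tested on simulated data. A gene was measured with at least 50 UMIs over both libraries, and a count of 0 was set to 3 counts per gate for a bound. NK cells had 141735 UMIs in d/d (median 5257 per cell, 1393 to 18285) and 934780 in f/f (median 4945, 1038 to 25262). Doublets were scored with Scrublet (scanpy 1.11.5) and kept in the main values; leaving out the highest 0.8% per 1000 barcodes was an alternative. The automatic threshold marked 400 d/d and 0 f/f barcodes and was not used.

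Named genes are Mettl14, the rule and further NK marker genes, the 12 highest and 12 lowest ratios by the interval bound nearest to 1 (leaving out rule genes and genes whose NK level was under 0.5 of that in the other cells), members of 29 gene lists by level or past 2-fold, and the leading Itga1 against Itga2 genes; not all are printed. Areg is singled out after its values were seen. Members and lists were chosen with earlier results of these data known. The stroma-poor and not cycling subsets were added after seeing the data. Other scalings used TMM (edgeR 4.0.16) and totals without mitochondrial and ribosomal protein genes. Promoters and motif counts come from the RefSeq table on GRCm38.p6, and gene positions from the GENCODE annotation of GRCm38.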

Additional observations from a re-analysis of the deposited data

How the results depend on the processing

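No paired analysis was possible because each genotype was 1 library, so no result here is a test and no replicate could be left out. The ratio of NK shares, 0.205 in the main values, was 0.206 to 0.304 under the other settings, except 0.324 in stroma-poor cells and 0.833 in stroma-poor cells that were not cycling, both subsets being chosen after seeing the data. Itga1 without Itga2 was found in 0% of d/d and 8.91% of f/f NK cells thinned to 1000 UMIs, and in stroma-poor cells that were not cycling in 19.2% of f/f cells, where Itga2 alone was found in 11.5%. The numbers of genes past 2-fold, 186 higher and 530 lower in d/d, were 357 and 906 without the excluding genes (of 6371 measured), 47 and 143 in stroma-poor cells, 21 and 13 in those not cycling (of 306), 43 and 64 with at least 200 UMIs (of 654), 730 and 1664 with at least 10 UMIs (of 8877), 435 and 956 at a log2 ratio of 0.58, and 117 and 947 with each gene's highest cell in each library left out, which takes a larger part of 25 cells than of 147. TMM scaling gave 206 and 490 and a median log2 ratio over all measured genes of -0.12, against -0.18 in the main values; the median of the m6A list was then 0.007. Signs turned in some genes and lists, and the cause was not tested. With the highest doublet scores left out the log2 ratios were -0.46 for Atf3, -0.63 for Pcp4, -0.15 for Egr1 and 0.27 for the steroid receptor list, then with 1 measured gene. In stroma-poor cells they were -0.66 for Atf3, -0.038 for Klra3, -0.038 for Tagln, 0.023 for Col1a1, 0.13 for Ctla2a, -0.35 for Nfkbiz and -1.04 for Pcp4. In those not cycling they were -0.31 for Zfp36, -0.20 for Gadd45b, -0.37 for Ier2, -0.22 for Ccl5, -1.40 for Ccl3, -0.45 for Serpinb9, 0.046 for Ctla2a, -0.029 for Fos, -0.39 for Nfkbiz, -0.20 for Acta2 and -0.22 for the cytokine list (3 genes). Without the excluding genes they were 1.31 for Ifi27l2a and -0.41 for the ILC3 list (3 genes). Genes without a UMI in d/d and with few in f/f got no ratio there. The 25 d/d NK cells, with 141735 UMIs in all, limit every value.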

Other observations

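Within the f/f library, stroma-poor NK cells that were cycling and those that were not differed in effector transcripts, in both directions. Of those not cycling 8 had 0 proliferation genes detected, 6 had 1 and 12 had 2. The 52 cycling cells had Ccl5 at 285 CPM against 2544 CPM in the 26 cells that were not cycling (log2 ratio -3.16, -3.61 to -2.71). Prf1 was at 138 CPM in cycling and 405 CPM in other cells (-1.55), and Tyrobp at 847 CPM in cycling and 1773 CPM in other cells (-1.06). Xcl1 was at 1441 CPM in cycling cells and 1638 CPM in the others (log2 ratio -0.19, -0.53 to 0.18). Gzmc went the other way, at 326 CPM in cycling and 116 CPM in other cells (1.49, 0.30 to 2.99). Its 6 UMIs in the other cells lay in 1 cell. Spp1 (0.89), Ifng (0.55) and Gzmb (0.13) also had log2 ratios above 0, with intervals that include 0. The median depth was 3546.5 UMIs in cycling cells and 1823.5 UMIs in the others, and the part of depth in these ratios was not tested. These are cells of 1 library, split after the data were seen, so the values are a description of that library.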
